A study of Mus musculus with 15 samples.

Results

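Neutrophils, the short-lived granulocytes that reach tissue from blood, were described here in the aortas of young and old mice given fisetin or vehicle. They were chosen by measured transcripts: a cell had to hold at least 10 unique molecular identifiers (UMIs, single counted RNA molecules) of each of S100a8 and S100a9, and a UMI of at least 2 of Csf3r, Cxcr2, Retnlg and Mmp9. It also had to lack Cd3e, Ms4a1, Cdh5 and C1qa, which mark T cells, B cells, endothelial cells (ECs) and macrophages, and to hold at most 1 UMI of the fibroblast genes Lum and Pdgfra. The rule found 1289 neutrophils among 128019 cells that passed quality filters, or 1.01%. They came from 13 of 15 libraries.

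The study asked how age and fisetin change the cells of the aorta. Fisetin is a plant flavonol given as a senolytic, a compound meant to remove senescent cells. Droplet-based single-cell RNA sequencing was run on 15 aorta libraries, 8 from females and 7 from males, each made from 3 pooled mice according to the labels. Young mice, labelled as 3 months old, and old mice, labelled as 27 months old, were given fisetin at 100 mg/kg per day or its vehicle by oral gavage, in 2 courses. This gave 4 libraries of young mice on vehicle (Y VEH), 4 of young mice on fisetin (Y FIS), 3 of old mice on vehicle (O VEH) and 4 of old mice on fisetin (O FIS). All mice were C57BL/6N, and all received the carrier of ethanol, PEG400 and Phosal, with or without fisetin. The study's methods state another age for the young mice than the labels, and aortas from 2 to 3 mice per sex and treatment group. The vessels were flushed through the left ventricle, freed of perivascular fat, digested with collagenase and elastase, and viable cells were sorted. F and M below are female and male libraries.

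Neutrophils are made in bone marrow and carry ready-made granules. Primary granules hold myeloperoxidase and elastase, and their transcripts belong to early precursors. Secondary and tertiary granules hold lactoferrin, cathelicidin, neutrophilic granule protein, lipocalin and gelatinases, and the transcripts of the secondary set are made mainly in later marrow precursors and fall away as the cell matures. Mature neutrophils that have entered tissue are known for Il1b, Cxcl2 and other inflammatory transcripts.

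The male Y FIS libraries stood apart before any comparison. Library M1 held 0 neutrophils of 14805 cells, which allows a share of up to 0.0203%, and library M2 held 0 of 8726, which allows up to 0.0344%. These limits cover counting error only. Monocytes and macrophages, picked by gates on their own markers, made up at most 0.0688% and 0.0540% of their cells, against at least 0.582% and 1.35% in every other library. Cells with Cd3e or Ms4a1 were present at 5.98% and 11.4% or less, inside the range of the other libraries. S100a9 in their ECs was at most 0.251 CPM (UMI counts scaled to a common library total), against at least 13.5 elsewhere. The share of neutrophils is therefore given with and without them, and only the female Y FIS libraries, F1 with 24 neutrophils and F2 with 89, entered the tests of neutrophil transcripts. Library totals ran from 49964001 to 74587567 UMIs, the sex-linked transcripts matched the label in all 15 libraries, and 0 neutrophil barcodes were neutrophil barcodes of another library.

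The cells carried the neutrophil programme beyond the genes of the rule. They had a median of 4870 UMIs, 1601 genes and 2.31% mitochondrial UMIs, and the library medians of UMIs ran from 3687 to 6580. All 20 transcripts of an identity list that the rule did not use had a higher mean level in neutrophils than in monocytes, macrophages and ECs. Ly6g, the classical mouse neutrophil antigen, stood at 224 ± 183 CPM (SD, n = 13 libraries) in neutrophils and at most 0.9 in the mean of the other 3 types. Il1r2, the decoy receptor for interleukin 1, was at 2169 ± 675 CPM against at most 7.6 elsewhere. Hdc, which makes histamine, was at 1966 ± 445 CPM, and Ifitm1, a membrane protein of the interferon-induced family, at 3316 ± 1337 CPM. Slpi, a secreted inhibitor of elastase, was shared, with 2726 ± 500 CPM in neutrophils and 2214 in macrophages. Of the macrophage and EC markers outside the rule, C1qc was at 14.4 CPM against 2685 in macrophages, and Pecam1 at 30.6 against 1360 in ECs. Not every such marker was rare: Fabp4, of the EC list, had a UMI in 81.4% of neutrophils. The 7 EC markers outside the rule summed to 286 to 792 CPM by library. Haemoglobin and immunoglobulin transcripts were high in some libraries, with values given below. These levels describe cells picked on related genes and are given with no test.

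**Figure D1:**
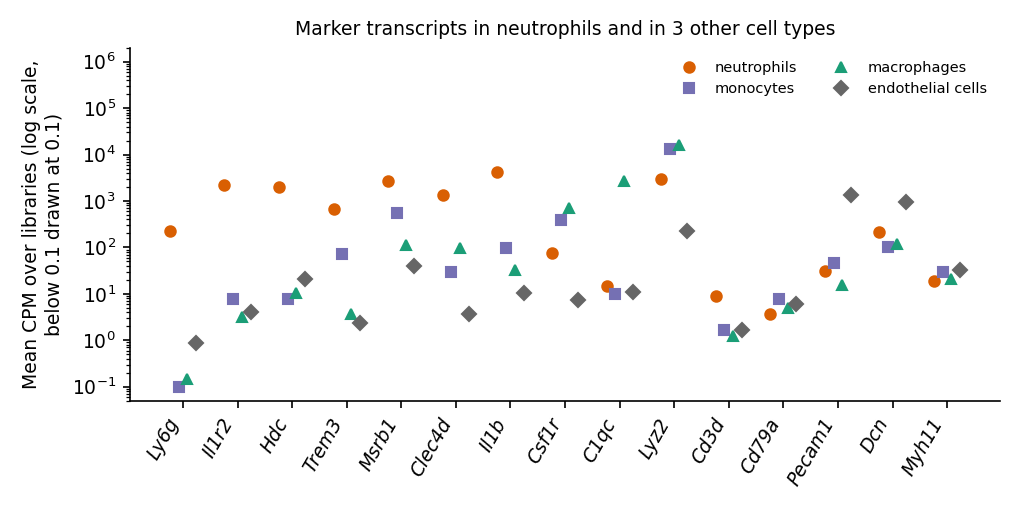
Mean level of marker transcripts in CPM (log axis, values under 0.1 drawn at 0.1) in neutrophils (circles), monocytes (squares), macrophages (triangles) and endothelial cells (diamonds), each point a mean over libraries. Ly6g, Il1r2 and Hdc were at 224, 2169 and 1966 CPM in neutrophils and far lower in the other types.

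The rule's own genes are given as description. S100a9 and S100a8, the subunits of calprotectin, were the 2 most abundant transcripts at 81175 ± 21595 and 65281 ± 21929 CPM (SD, n = 13), and neutrophils held 71.4% and 71.2% of all UMIs of S100a9 and S100a8 in the series. S100a8 ran from 34335 to 60562 CPM in Y VEH and from 52721 to 153839 in O VEH, with its highest value in O VEH F1. Retnlg, a resistin-like secreted protein, was at 10970 CPM, Csf3r, the G-CSF receptor, at 2469, Cxcr2, the chemokine receptor that guides neutrophils, at 1148, and Mmp9, gelatinase B, at 1070. The limit of 10 UMIs cut through few cells: in 19 cells the lower of S100a8 and S100a9 had 10 to 14 UMIs, and in 19 cells just outside it had 5 to 9. The limits on other lineages mattered more, since 479 of 1768 otherwise qualifying cells (27.1%) failed them.

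The share of neutrophils varied widely within each group. In Y VEH it was 0.651% in F1, 0.297% in F2, 1.71% in M1 and 0.404% in M2. In Y FIS it was 0.349% in F1 and 1.26% in F2, with no neutrophil in either male library. In O VEH it was 2.01% in F1, 0.777% in F2 and 2.05% in M1. In O FIS it was 2.40% in F1, 0.938% in F2, 0.710% in M1 and 2.49% in M2. Every pair of groups overlapped.

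The old groups had the higher means, but no difference in share passed its test. The mean share was 1.61 ± 0.724% for O VEH (SD, n = 3) and 1.63 ± 0.942% for O FIS (n = 4), against 0.764 ± 0.645% for Y VEH (n = 4) and 0.401 ± 0.593% for Y FIS (n = 4). O VEH exceeded Y VEH 2.11-fold in the ratio of means, a difference of mean log2 shares of 1.27 (two-sided exact permutation test, p = 0.114, adjusted over 4 contrasts 0.286). With 3 libraries against 4 the exact permutation test cannot go below p = 0.0571, and with 4 against 4 not below 0.0286. O FIS and O VEH differed by -0.06 on the log2 scale (exact permutation p = 0.857), and O FIS and Y VEH by 1.21 (exact permutation p = 0.143, adjusted 0.286). Y FIS against Y VEH gave -3.49 (exact permutation p = 0.229, adjusted 0.305), which rested on the male Y FIS libraries: without them the difference was 0.13 (exact permutation p = 1.0).

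**Figure D2:**
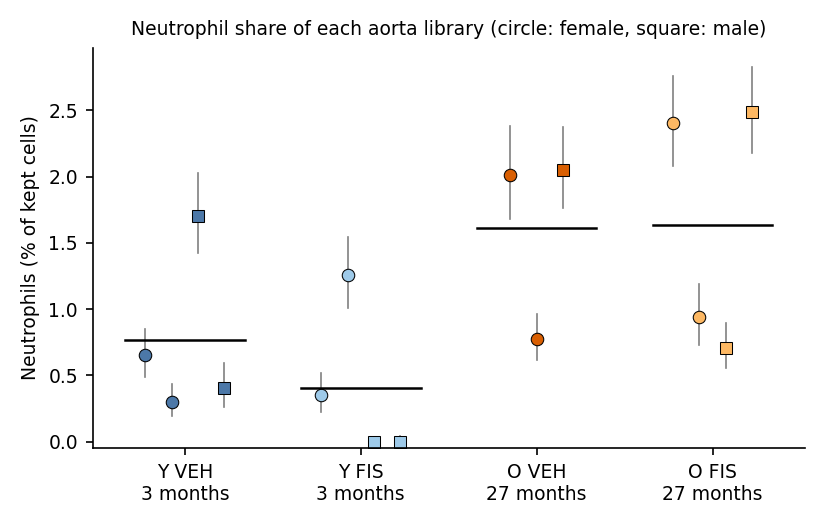
Neutrophils as a percentage of the cells kept in each library (vertical axis), by group (horizontal axis, with the labelled age); circles are female and squares male libraries, black lines group means and grey bars 95% Clopper-Pearson intervals for counting error. The male Y FIS libraries lie at 0, and the other libraries span 0.297% to 2.49% with overlap between all groups.

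As a share of cells with a UMI of Ptprc, the pan-leukocyte antigen CD45, neutrophils made up 5.91 ± 3.20% for O VEH (SD, n = 3) and 5.70 ± 2.56% for O FIS (n = 4), against 1.90 ± 1.30% for Y VEH (n = 4) and 1.67 ± 2.45% for Y FIS (n = 4). The order of young and old was the same on this denominator. Pooled over libraries, Y VEH held 232 neutrophils, Y FIS 113, O VEH 382 and O FIS 562.

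Transcripts were compared on UMI counts summed over the neutrophils of each library, with edgeR's quasi-likelihood test on group and sex. Levels by library below are CPM scaled by the trimmed mean of M-values (TMM), which corrects for differences in composition, while levels by cell type or pooled, and sums over lists, are plain CPM. Of 5197 genes tested, 12 were differentially abundant RNAs (DARs: Benjamini-Hochberg adjusted p under 0.05, absolute log2 fold change over 0.25, and detection in over 10% of the neutrophils of either group) between O VEH and Y VEH, a background of 0.231%. Of these, 7 were higher and 5 lower in O VEH, and in all 12 the libraries of the groups did not overlap, which held for 6.2% of all genes tested. The higher DARs included Ngp, Cd177, Cybb and Ly6a2, and the lower ones were Cdk8, Cmss1, Lars2, Gphn and Camk1d. Leaving out 1 library cut the count to 4 without Y VEH F1, 4 without Y VEH F2, 5 without Y VEH M1, 7 without Y VEH M2 and 6 without O VEH F1. Separate pools were labelled as separate samples, so these p-values measure the spread between pools.

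Of the secondary granule transcripts, Ltf, Camp and Ngp were higher in every old library than in every young one. Ltf encodes lactoferrin, an iron-binding protein, Camp the precursor of the antimicrobial peptide cathelicidin, and Ngp the neutrophilic granule protein. All 3 genes lie on chromosome 9, and their promoters are printed because the cells described below were counted by these 3 transcripts. The lines give 250 bases before to 50 bases after the annotated start, 5′ to 3′ on the gene's strand, from RefSeq on GRCm38.p6, at chr9:111019042-111019341 (plus strand), chr9:109849407-109849706 (minus strand) and chr9:110419558-110419857 (plus strand). Capitals mark matches to TTNNGNAA or its reverse complement TTNCNNAA, the core pattern bound by C/EBP factors, which drive granulocyte genes.
Ltf: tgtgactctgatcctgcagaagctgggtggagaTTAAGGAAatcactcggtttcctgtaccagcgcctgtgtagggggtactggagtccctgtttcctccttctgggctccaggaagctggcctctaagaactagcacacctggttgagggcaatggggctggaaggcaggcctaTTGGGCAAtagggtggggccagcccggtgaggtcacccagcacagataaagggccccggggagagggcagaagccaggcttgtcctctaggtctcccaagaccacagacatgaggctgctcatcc
Camp: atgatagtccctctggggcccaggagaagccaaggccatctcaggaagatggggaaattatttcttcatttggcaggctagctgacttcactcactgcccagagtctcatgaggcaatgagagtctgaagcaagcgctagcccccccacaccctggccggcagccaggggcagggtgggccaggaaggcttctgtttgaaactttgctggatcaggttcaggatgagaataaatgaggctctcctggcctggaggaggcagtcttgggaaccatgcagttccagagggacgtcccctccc
Ngp: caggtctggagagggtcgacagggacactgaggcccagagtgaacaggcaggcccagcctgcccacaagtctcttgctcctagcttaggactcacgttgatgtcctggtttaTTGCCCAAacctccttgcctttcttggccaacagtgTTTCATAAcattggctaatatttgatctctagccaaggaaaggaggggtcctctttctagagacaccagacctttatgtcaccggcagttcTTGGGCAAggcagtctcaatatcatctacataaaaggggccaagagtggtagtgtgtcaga
The Ltf window held 2 matches, the Ngp window 3 and the Camp window 0. Of 32851 promoter windows of this length, 40.7% held at least 1 match, 13.6% at least 2 and 3.60% at least 3. A match is a string of letters and not a measured binding site.

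Camp was not detected in Y VEH neutrophils and was abundant in old ones. It had 0 UMIs in all 4 Y VEH libraries and in Y FIS F1, and 2.34 CPM in Y FIS F2. It was at 8274 CPM in O VEH F1, 2780 in F2 and 2041 in M1. In O FIS it was at 1507 CPM in F1, 1806 in F2, 9294 in M1 and 694 in M2. Every old library thus lay above every young one. Pooled over libraries, it was at 4095 CPM in O VEH and 2046 CPM in O FIS, against 0 of the 1191409 UMIs of Y VEH. One library carried much of each pooled level, which was 2210 CPM without O VEH F1 and 1101 CPM without O FIS M1. No limit on the fold is given. The UMIs of Camp sat in few cells, and a limit counted in UMIs would not cover which cells were drawn. Camp was not a DAR, because its UMIs sat in 9.42% of O VEH neutrophils. Since it passed the filter on low counts only through the old libraries, its fitted fold and p against Y VEH are not given. At an equal depth of 1000 UMIs a cell, Camp was seen in 3.91% of 1279 neutrophils and in 0.167% of 3000 ECs, which should lack it.

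Ltf was likewise high in old neutrophils. Its 2 highest Y VEH values were 7.07 CPM in F1 and 3.08 in M1, with 0 in F2 and M2, and both Y FIS libraries were at 0. It reached 3637 CPM in O VEH F1, 922 in F2 and 735 in M1, and 547, 919, 2299 and 224 in the 4 O FIS libraries. It had 4 UMIs in all over Y VEH. Chil3, a chitinase-like protein of myeloid precursors, was at most 1.54 CPM in Y VEH and 1297, 492 and 214 CPM in O VEH F1, F2 and M1. Itgb2l, a β2 integrin-like subunit, had 3 UMIs over Y VEH, a mean of 2.76 CPM, and a mean of 51.6 CPM in O VEH. Like Camp, these 3 were no DARs and passed the filter only through the old libraries, so they are described with no test.

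Ngp was the DAR with the largest change. Its Y VEH values were 3.54 CPM in F1, 255 in F2, 129 in M1 and 0 in M2, and Y FIS had 0 and 74.7 CPM. O VEH had 14162 CPM in F1, 3029 in F2 and 2574 in M1. O FIS had 3138, 2111, 8908 and 1042 CPM in F1, F2, M1 and M2. The lowest old library was above the highest young library, and O VEH F1 and O FIS M1 were far above the rest. The log2 fold change of O VEH against Y VEH was 6.08 (SE 1.04, edgeR adjusted p 0.0118).

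**Figure D3:**
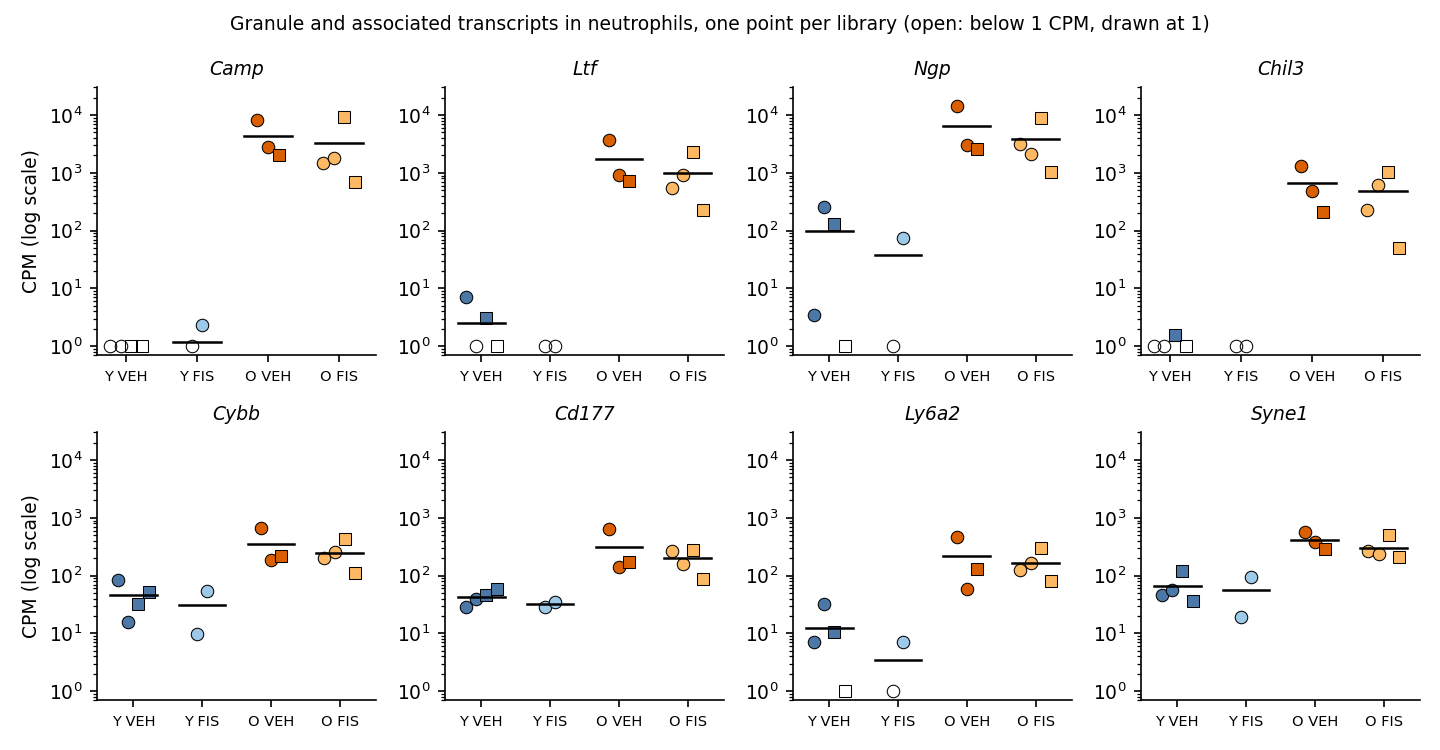
Level of 8 transcripts in neutrophils, in CPM on a log axis, 1 point per library (circle female, square male, open symbols drawn at 1 where the value is under 1), by group, with lines at the group means of at least 1. Camp was at 0 in Y VEH and between 2041 and 8274 CPM in O VEH, and O VEH F1 was the highest O VEH point in all 8 panels.

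The other higher DARs had surface, oxidase and structural roles. Cd177, a neutrophil surface glycoprotein linked to adhesion, was at 28.3 to 59.0 CPM in Y VEH and at 645, 140 and 170 CPM in O VEH F1, F2 and M1 (log2 fold change 2.75, SE 0.54, adjusted p 0.0315). Cybb, the catalytic subunit of the NADPH oxidase, was at 15.95 to 84.9 CPM in Y VEH and at 656, 187 and 221 CPM in O VEH (2.83, SE 0.55, adjusted p 0.0315). Ly6a2, a member of the Ly6 family of small surface proteins whose genes resemble each other, was at 0 to 31.9 CPM in Y VEH and at 466, 59.2 and 128 CPM in O VEH. It had 13 UMIs in all over Y VEH and, alone among the 12 DARs, passed the filter on low counts only through the old libraries, so its fitted fold and p against Y VEH are not given. In each of these the O VEH libraries were all above Y VEH, with F1 on top.

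Syne1, which encodes nesprin-1 of the nuclear envelope, was at 36.9 to 122 CPM in Y VEH and at 575, 380 and 285 CPM in O VEH (log2 fold change 2.55, SE 0.43, adjusted p 0.0109). Plac8, a small cysteine-rich protein of myeloid cells, was at 31.9 to 44.6 CPM in Y VEH and at 293, 52.9 and 233 CPM in O VEH (2.36, SE 0.44, adjusted p 0.0252). The O FIS libraries were also above Y VEH for both, at 212 to 499 CPM for Syne1 and 99.3 to 148 for Plac8. mt-Nd6, the complex I subunit encoded on the light strand of mitochondrial DNA, had a mean of 11.2 CPM in Y VEH and 57.1 in O VEH (2.05, SE 0.41, adjusted p 0.0321). Its Y FIS values of 48.0 and 86.4 CPM were within or above the 33.1 to 81.0 CPM of O VEH.

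Transcripts of Ltf, Camp and Ngp came from a minority of cells, unlike those of Lcn2, which had a UMI in 75.7% of neutrophils. Only 242 of 1289 neutrophils held a UMI of Ltf, Camp or Ngp, and the sum ranged from 1 to 4 UMIs in 133 of them to at least 1000 in 16. Cells with 10 or more such UMIs numbered 83. This limit was set after the values were seen, so the counts below carry no test. In Y VEH there were 0 of 55 such cells in F1, 1 of 26 in F2, 3 of 125 in M1 and 0 of 26 in M2, and in Y FIS 0 of 24 and 2 of 89. In O VEH there were 29 of 128 cells in F1, 2 of 80 in F2 and 8 of 174 in M1, and in O FIS 19 of 198 in F1, 2 of 66 in F2, 7 of 71 in M1 and 10 of 227 in M2. Pooled, they were 4 of 232 cells in Y VEH, 39 of 382 in O VEH and 38 of 562 in O FIS, and most of those in O VEH were in F1. By share the libraries of old and young mice overlapped, since Y VEH F2, at 3.85%, was above O VEH F2 and above O FIS F2, at 3.03%. The highest sum in 1 cell was 21 UMIs in Y VEH and 19 in Y FIS, against 3767 in O VEH and 2496 in O FIS.

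Equal depth was also compared. After every neutrophil was thinned to 1000 UMIs, with 10 shallower cells left out over all groups, at least 3 UMIs of the 3 genes were found in 0 of 230 Y VEH cells, which allows up to 1.30% of these pooled cells, and in 0 of 113 Y FIS cells, which allows up to 2.65%. These limits cover counting error in the thinned UMIs, and unthinned, 13 of 232 Y VEH cells held at least 3 such UMIs. Of these 5 were among the 26 cells of Y VEH F2 (19.2%), a share above that of O VEH F2 (3.75%) and M1 (6.90%) and of O FIS F2, M1 and M2 (6.06%, 12.7% and 5.73%). After thinning, at least 3 UMIs were found in 33 of 377 O VEH cells (8.75%) and 32 of 559 O FIS cells (5.72%). By library these were 24, 1 and 8 cells in O VEH and 14, 2, 7 and 9 in O FIS. At least 1 UMI was found in 3 of 26 cells of Y VEH F2 (11.5%), again above O VEH F2 (5.06%) and M1 (8.05%).

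The 83 cells differed from the rest in many other transcripts, described here with no test. They had a median of 11911 UMIs and 2352 genes, against 4655 and 1570 in the 1047 neutrophils with none of the 3 transcripts. A limit set in UMIs by itself favours deep cells. Both sets were pooled over libraries, with 29 of the 83 cells from O VEH F1, so the differences take in library and age. The 83 cells were compared with the 1047 as follows. The 83 cells held 14.7% of neutrophil UMIs but 91.7% of those of Chil3, 84.9% of Serpinb1a, an inhibitor of neutrophil serine proteases, 76.9% of Cebpe, the factor of late granulocyte maturation, 76.2% of Cybb, 74.8% of Cd177 and 66.7% of Syne1. Lcn2, lipocalin 2, was 8.32-fold higher per UMI in them than in the cells with none, Ly6g 5.09-fold and Mmp8, the neutrophil collagenase, 4.90-fold. The inflammatory transcripts ran the other way: Il1b was 16.04-fold lower, Ccl3 10.5-fold and Cxcl2 3.90-fold, and the receptors Csf3r and Il1r2 were 5.04-fold and 5.18-fold lower. Of 10 proliferation genes, 7 were higher and 3 lower per UMI in the 83 cells than in the cells with none. Stmn1, a tubulin-binding protein of dividing cells, was at 20.4 CPM in the 83 cells and 3.85 CPM in the others. The cyclin Ccnb2 was at 14.8 and 3.47 CPM and Mki67 at 10.2 and 13.7 CPM. These levels rest on few UMIs: the 83 cells held 22 of Stmn1, 16 of Ccnb2 and 11 of Mki67. Birc5, another of the 7, had 14 of its 19 UMIs in the 83 cells, and they sat in very few of these cells. A few cells can set such levels, so they do not describe the 83 cells as a set. The primary granule transcripts Mpo and Elane were at 0.1 and 0 CPM over all neutrophils.

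Without the 242 cells that held a UMI of Ltf, Camp or Ngp, no DAR was higher in O VEH. The cells were removed by transcripts that were high in old mice, so the loss of Ngp was fixed by the removal, and neither it nor Ly6a2, with 84.5% of its UMIs in the 83 cells, was tested. Syne1, Cd177 and Cybb, which also had most of their UMIs in the 83 cells, then had log2 fold changes of 0.24, 0.02 and 0.95. Their fall was thus largely fixed by the removal too, so no p is given for them. Plac8 and mt-Nd6 were not called (edgeR adjusted p 0.122 for both), at 2.06 and 1.96 against 2.36 and 2.05 with all cells. Lower DARs remained, with Cdk8, Cmss1, Lars2 and Gphn still called. Camk1d lost its call, though its log2 fold change lay between -1.03 and -0.83 in all alternatives. Without the 42 cells over 2.5 times the median UMIs of their library, 0 higher and 3 lower DARs were left.

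The 5 lower DARs were not concentrated in the 83 cells, which held 7.07% of the UMIs of Camk1d, 8.96% of Cdk8, 9.26% of Cmss1, 10.3% of Lars2 and 10.4% of Gphn. Cdk8, a kinase of the Mediator complex, was at 438, 431, 378 and 384 CPM in Y VEH F1, F2, M1 and M2 and at 161, 49.8 and 76.2 CPM in O VEH F1, F2 and M1 (log2 fold change -2.09, SE 0.29, edgeR adjusted p 0.00264). Cmss1, a small-subunit ribosome biogenesis protein, was at 2716, 2664, 3881 and 2818 CPM in Y VEH and at 1158, 688 and 964 in O VEH (-1.67, SE 0.26, adjusted p 0.00633). Lars2, the mitochondrial leucyl-tRNA synthetase, was at 492, 399, 645 and 539 CPM in Y VEH and at 212, 196 and 213 in O VEH (-1.31, SE 0.20, adjusted p 0.00633). For these 3 the highest O VEH library was below the lowest Y VEH library by a wide margin.

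Gphn, the scaffold protein gephyrin, was at 273 to 396 CPM in Y VEH and 131 to 173 in O VEH (log2 fold change -1.07, SE 0.21, adjusted p 0.0315). Camk1d, a calcium/calmodulin-dependent kinase of granulocytes, was at 1579 to 1977 CPM in Y VEH and 811 to 977 in O VEH (-0.94, SE 0.19, adjusted p 0.0444). The O FIS libraries had Cdk8 at 159 to 269 CPM and Camk1d at 1068 to 1351, between the vehicle groups in the mean. The female Y FIS libraries had Cdk8 at 374 and 385 CPM and Camk1d at 1362 and 1943, above every O VEH library, and the lower value of each was under the Y VEH range.

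**Figure D4:**
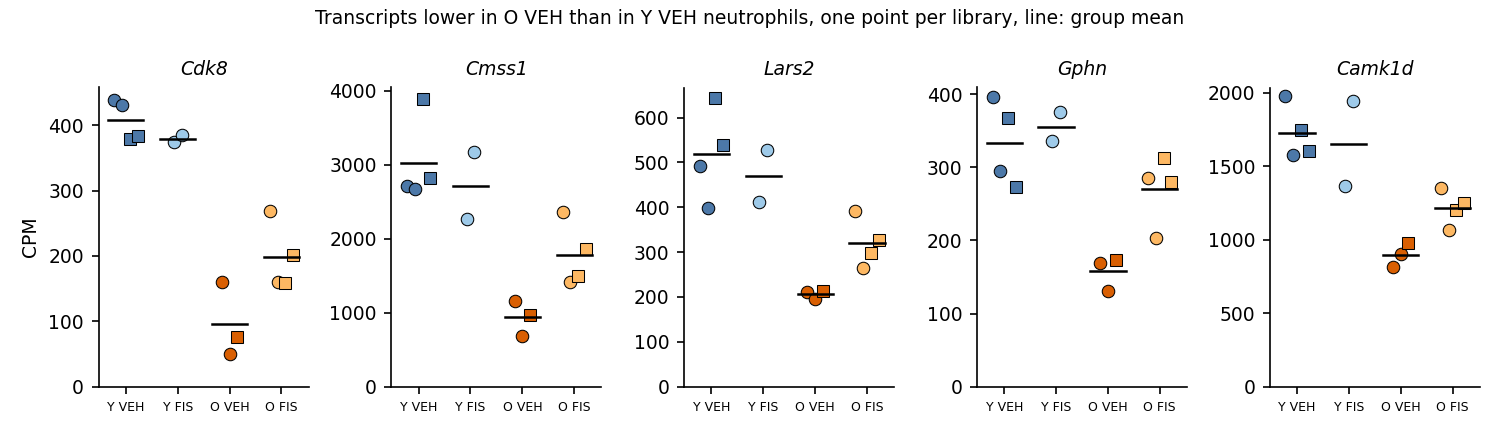
Level of the 5 transcripts that were lower in O VEH than in Y VEH neutrophils, in CPM on linear axes from 0, 1 point per library (circle female, square male), with lines at group means. Cdk8 was at 378 CPM or more in every Y VEH library, at 49.8 to 161 CPM in O VEH and at 159 to 269 in O FIS.

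All 5 also had a negative log2 fold change in monocytes of the same O VEH and Y VEH libraries, and 4 passed the test there. The fit of monocytes also held Y FIS M1, with 10 monocytes. In monocytes, O VEH against Y VEH gave log2 fold changes of -1.46 for Cdk8, -1.63 for Cmss1, -1.22 for Lars2 and -0.88 for Gphn, each with an edgeR adjusted p under 0.05, and of -0.50 for Camk1d (adjusted p 0.104). None of the 5 passed the test of a difference between the cell types. The increases divided. The test of the difference (neutrophils minus monocytes, with the library as a block) gave 2.83 for Syne1 (SE 0.55, edgeR adjusted p 0.0156) and 2.13 for Cybb (SE 0.49, adjusted p 0.0436). Ly6a2 was also called, but the difference holds its fold against Y VEH, so its value and p are not given. Ngp, at 5.60 (SE 1.44, adjusted p 0.0878), Cd177, Plac8 and mt-Nd6 did not pass it.

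Over 10540 genes, 22 differed between the cell types in their change with age, or 0.209%, with 8 higher in neutrophils relative to monocytes and 14 lower. Higher were Serpinb1a, Cebpe and Ly6a2, which passed the filter on low counts in neutrophils only through the old libraries. Their values and p are thus not given. Tbrg1 was higher at 2.65, Fabp5, a fatty acid binding protein, at 1.63 and Ltb4r1, the leukotriene B4 receptor, at 1.60. Among the lower ones, Fcgr4, an Fc receptor, had a log2 fold change of 0.03 in neutrophils and 1.96 in monocytes (monocyte adjusted p 0.0416), and Mirt1, a noncoding RNA, -0.24 and 1.99 (0.0476). Trem1, an amplifying receptor of myeloid cells, had -0.24 and 1.80 (0.0951), the leukocyte integrin chain Itgal -0.32 and 1.22 (0.139), and the phosphatase Phlpp1 -1.18 and 0.73 (0.129). With all other cells in place of monocytes, 7 of the 22 stayed called, namely Serpinb1a, Ly6a2, Syne1, Cybb, Tbrg1, Fcgr4 and Trem1. The same limit holds there for Serpinb1a and Ly6a2. The same test for fisetin gave 0 genes in old mice and 0 in young mice, with 265 and 403 genes at an unadjusted p under 0.05.

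The gene lists place these changes in the rest of the neutrophil programme. Unadjusted p under 0.05 was reached by 3.71% of all genes tested for higher and 2.92% for lower levels in O VEH, and the median log2 fold change over all genes was 0.00. Of 12 genes on the secondary and tertiary granule list, which counts the receptor Ltb4r1, Camp, Ltf, Chil3 and Itgb2l had under 10 UMIs over Y VEH and are described above. Of the other 8, 2 were DARs, 5 were higher and 0 lower at that p, and the median was 0.81. Lcn2 had 866 to 2624 CPM in Y VEH and 10742, 2839 and 2627 in O VEH (log2 fold change 1.51, adjusted p 0.543), and Hp, haptoglobin, had 0.28 (adjusted p 0.910). Only 2 of 7 genes on the primary granule list passed the filter on low counts, Cd63 at 0.30 (adjusted p 0.943) and the protease inhibitor Serpinb1a, the latter only through the old libraries. Of 10 proliferation genes 3 were tested and none reached p under 0.05.

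Interferon-response genes leaned higher in O VEH, and none was a DAR. Of 22 tested, 0 were DARs, 21 had a positive log2 fold change and 12 were higher at an unadjusted p under 0.05, with a median of 0.75. Without Ifi47, Usp18 and Xaf1, which passed the filter on low counts only through the old libraries, 10 of 19 were higher, with a median of 0.74. Zbp1, a nucleic acid sensor, had 2.23 (SE 0.50, adjusted p 0.0908), Ifitm3 0.86 (adjusted p 0.607), Ifitm2 0.09 (adjusted p 0.993) and Slfn1 0.27 (adjusted p 0.866). Single libraries weighed on the count: it was 2 without O VEH F1, 4 without O VEH M1, 5 without Y VEH F1 and 6 without Y VEH F2, and the median without O VEH F1 was 0.50.

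Cytokines and most immediate early genes had the opposite sign, and none was a DAR. All 13 cytokine and chemokine genes tested had a negative log2 fold change, with a median of -0.33, but only 3 reached an unadjusted p under 0.05, namely Ccl3 at -1.36, Csf1 at -1.05 and Tnf at -0.71 (adjusted p 0.172, 0.469 and 0.695). Il1b, the main interleukin 1 of these cells, was at -0.03 and Cxcl2 at -0.62 (adjusted p 1.00 and 0.788). Of 14 immediate early and heat shock genes 12 had a negative and 2 a positive log2 fold change, 3 were lower and 0 higher at that p, with a median of -0.42, and of 13 NF-κB genes 3 were lower and 0 higher, with a median of -0.22. The summed level of the cytokine list was 12397 to 15612 CPM in Y VEH and 6208, 13919 and 11236 CPM in O VEH F1, F2 and M1.

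The remaining lists are given by their counts at that p. The identity list had 3 genes higher and 1 lower of 20, with Cd177 as its DAR and a median of 0.07, and Ifitm1, Slpi and Msrb1 were at 0.74, -0.10 and -0.02. Of 7 NADPH oxidase genes only Cybb passed, and Cyba and Rac2 were at 0.17 and 0.23. Antigen presentation had 2 higher and 1 lower of 12 (1 and 1 without H2-Q7, which passed the filter only through the old libraries), with H2-K1, a class I molecule, at 0.82 (adjusted p 0.231). Chemokine receptors had 1 higher and 2 lower of 9, with Cxcr4, the marrow retention and ageing receptor of neutrophils, at -0.72 (adjusted p 0.522). Cytokine receptors had 1 lower of 13, which was Il1r2 at -0.60 (adjusted p 0.607). Adhesion molecules had 1 higher and 0 lower of 12, with Cd44, the hyaluronan receptor, at -0.32 (adjusted p 0.875). The granulocyte transcription factors had 1 higher of 10, which was Cebpe and passed the filter only through the old libraries, the pattern and Fc receptors 2 lower of 12, the hypoxia and glycolysis list 1 higher of 12, the survival list 1 lower of 14 and the mitochondrial transcripts 0 of 8. Of 5 S100 family genes outside the rule 1 was lower, which was S100a10 at -2.18 (adjusted p 0.433).

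Of 12 genes in the list of senescence and secretory transcripts, S100a9 belongs to the rule and is described above, 3 others passed the filter on low counts and none of these reached an unadjusted p under 0.05. Cdkn2a, which encodes p16, was at 0 CPM over all neutrophils, and Cdkn1a, which encodes p21, at 30.3 CPM, with a log2 fold change of -0.22 in O VEH against Y VEH (adjusted p 0.990). Ccl4 was at -0.70 (adjusted p 0.837).

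**Figure D5:**
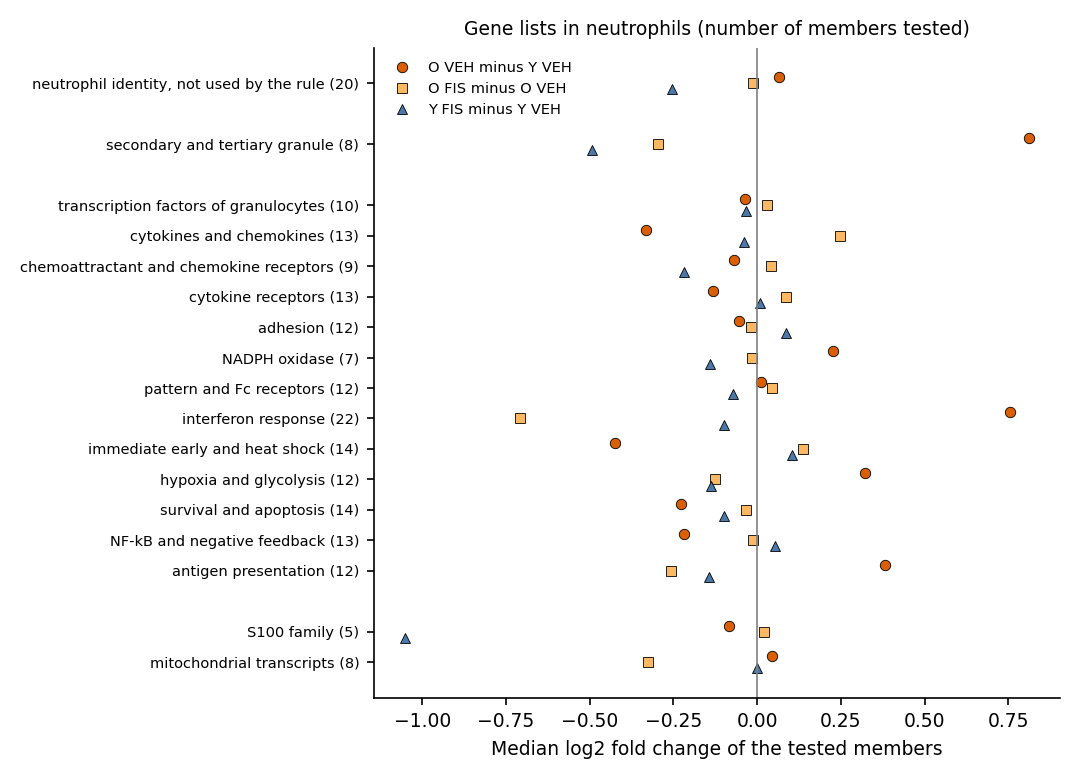
Median log2 fold change of the tested members of each gene list (horizontal axis) for O VEH minus Y VEH (circles), O FIS minus O VEH (squares) and Y FIS minus Y VEH (triangles), with the number of members tested after each name; lists with under 5 tested are not drawn. The secondary and tertiary granule list is drawn without the 4 genes under 10 UMIs over Y VEH and stands at 0.81 for age, and the interferon list at 0.75 for age and -0.71 for fisetin in old mice. The age and old-fisetin contrasts share O VEH, and the age and young-fisetin contrasts share Y VEH.

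Transcripts of other cells varied between libraries beside these results. The erythroid list was highest in Y VEH M2 at 85769 CPM, followed by O VEH F1 at 45625, O VEH F2 at 31696 and O FIS M1 at 23399, and lowest in Y VEH F1 at 60.2. The 5 B-cell markers outside the rule summed to 10581 CPM in O FIS F1 and at most 343 CPM in every other library. The 7 monocyte markers summed to 235 to 432 CPM in Y VEH and 406 to 820 CPM in O VEH, the 5 macrophage markers to at most 199 CPM, and the 5 T and NK markers to at most 56.5 CPM. Over all libraries, the 6 fibroblast markers outside the rule ran from 331 CPM in O FIS F2 to 1910 in Y VEH F2. The 7 EC markers outside the rule ran from 286 to 792 CPM and the 6 smooth muscle markers from 78.2 to 436 CPM. Without the 16 cells over 1% haemoglobin, 12 genes were called with age, of which 11 were shared. Gphn was then not called, at -1.04 (edgeR adjusted p 0.0574), and O FIS against Y VEH had 1 call in place of 0. The part of the other markers in the results was not tested.

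Fisetin in old mice gave no DAR. Of 5197 genes, 0 (0%) were called between O FIS and O VEH by edgeR and 0 by DESeq2, and 44 (0.847%) were higher and 43 (0.827%) lower at an unadjusted p under 0.05. Genes with a small unadjusted p included 4 of the 5 that were lower in O VEH than in Y VEH. Cdk8 was at 269, 161, 159 and 202 CPM in O FIS F1, F2, M1 and M2 (log2 fold change 1.07, SE 0.28, unadjusted p 0.00144, adjusted p 1.00). Cmss1 had 0.92 (unadjusted p 0.00185), Gphn 0.75 (0.00167) and Lars2 0.62 (0.00593), all with an adjusted p of 1.00. These comparisons use the same O VEH libraries as the age contrast, so their signs are not independent of it.

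The interferon list had 0 genes higher and 8 lower of 22 in O FIS at an unadjusted p under 0.05, a median of -0.71 and 19 negative values. Herc6, an E3 ligase for Isg15, had a log2 fold change of -1.36 (SE 0.38) and Oasl1, an oligoadenylate synthetase-like protein, -1.10 (SE 0.32), both with an adjusted p of 1.00. Without O VEH F1 the list had 2 lower of 20 and a median of -0.44. Granule transcripts had 0 of 12 at an unadjusted p under 0.05 and a median of -0.35, which turned to 0.19 without O VEH F1. Ngp differed by -0.72 (SE 0.93) and Camp by -0.73 (SE 0.81) between the old groups, so that a 2-fold decrease lies within 2 standard errors for both. Cdkn1a was at -0.36 (adjusted p 1.00).

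Fisetin in young mice could be tested only on the female Y FIS libraries. None of 5197 genes (0%) was a DAR against Y VEH by edgeR, with 134 (2.58%) higher and 184 (3.54%) lower at an unadjusted p under 0.05. Hsp90b1, the endoplasmic reticulum chaperone gp96, had the smallest p: it was at 120, 160, 38.5 and 44.3 CPM in Y VEH and 19.2 and 30.4 in Y FIS (log2 fold change -2.07, SE 0.43, adjusted p 0.603). mt-Nd6 was at 2.20 (SE 0.48, adjusted p 0.603). Of the 8 granule genes with 10 or more UMIs over Y VEH, 0 reached p under 0.05, with a median of -0.49, and of 22 interferon genes 1 was lower, with a median of -0.10. Restricted to female libraries, 0 genes were called. The test of whether fisetin acted differently in old and young mice also called 0 of 5197 genes, with 185 at an unadjusted p under 0.05.

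Old mice on fisetin were set against young mice on vehicle to see how far the treated old cells stood from young ones. No gene met all criteria (0%), though 3 had an edgeR adjusted p under 0.05 and failed the cutoff on fold change or detection. At an unadjusted p under 0.05, 180 (3.46%) were higher and 150 (2.89%) lower, and DESeq2 called 14. Ngp had a log2 fold change of 5.36 (SE 0.98, edgeR adjusted p 0.0518) and Syne1 2.02 (SE 0.40, adjusted p 0.0749), neither past the threshold. Of the 8 granule genes with 10 or more UMIs over Y VEH, 3 were higher and 0 lower at an unadjusted p under 0.05, with a median of 0.53. The interferon list had 1 higher and 1 lower of 22, with a median of 0.19.

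Between the sexes, 4 of 5197 genes (0.077%) were DARs, all on the sex chromosomes. Ddx3y, Eif2s3y and Uty were higher in males by 7.62, 8.27 and 7.39 on the log2 scale and Xist was lower at -8.51.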

How the data were processed

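Aortic cells were profiled in 15 libraries with 10x 3′ chemistry. The authors aligned and counted reads with Cell Ranger 8.0.1 on GRCm39 and used Seurat 5.2.0, according to their processing notes, and deposited a filtered matrix of UMI counts per gene and barcode for each library. Barcodes with 200 to 7000 genes and at most 25% mitochondrial UMIs were kept. No doublet caller was run, but the limits on other lineages removed cells with their markers. Monocytes were gated by a Csf1r UMI with Ly6c2 and Ccr2 (at least 3 UMIs) or Ace and Treml4 (at least 2), without Cxcr2 or Retnlg. The members and gene lists were chosen with earlier results of these data known.

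Counts were summed over the neutrophils of each library with at least 10, and tested with edgeR 4.0.16 in R 4.3.3 (TMM, filterByExpr, terms for group and sex, 8 residual degrees of freedom), with DESeq2 1.42.0 as an alternative. The 12 genes of the rule were left out of all calls. Shares were compared with exact permutation tests in scipy 1.17.1 on log2 of (neutrophils + 0.5) over cells. Named genes were up to 10 DARs with the largest change in each direction whose groups did not overlap, every DAR of a list, and the 3 most abundant members of each list, of which some are not reported here. Genes named from the smallest p-values without passing, and Camp, Ltf, Chil3 and Itgb2l, were picked after their values were seen. In data simulated for O VEH against Y VEH over 5204 genes, 81.2% of genes changed by 2 on the log2 scale were recovered, 21.5% of those changed by 1 and 2.06% of those changed by 0.5. Recovery was judged by the adjusted p alone, without the cutoffs on fold change and detection, and the simulated counts held no sex effect. Leaving out each library, other gates, filters and normalizations were tried as alternatives, and 4 more were chosen after seeing the data: without cells holding Ltf, Camp or Ngp, without cells over 1% haemoglobin, female libraries only, and shares without the male Y FIS libraries.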

Additional observations from a re-analysis of the deposited data

Results flagged for a closer look

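The change with age (O VEH against Y VEH) differed between neutrophils and monocytes for 17 named genes by edgeR's test of the difference itself, adjusted over 10540 genes. The log2 difference was positive for Serpinb1a (4.17), Ly6a2 (3.68), Cebpe (3.46), Syne1 (2.83), Tbrg1 (2.65), Cybb (2.13), Fabp5 (1.63) and Ltb4r1 (1.60). The difference was negative for Mirt1 (-2.25), the phosphatases Dusp16 (-2.03) and Phlpp1 (-1.92), Trem1 (-1.91), Fcgr4 (-1.89), Rnf144a (-1.63), Itgal (-1.56), Pag1 (-1.48) and the RNA sensor Tlr13 (-1.48). Among the negative ones the log2 fold change in monocytes ran from 0.73 for Phlpp1 to 1.99 for Mirt1, and that in neutrophils from -1.18 for Phlpp1 to 0.10 for Pag1.

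Of 141 sets of 4 libraries tested, over the neutrophil shares and 69 genes, 8 had 1 library far from the other 3, and about 1 in 20 would be so by chance. In Y VEH these were Cmss1 in M1 at 3881 CPM, Tubb5, a tubulin, in F1 at 53.0, Cdkn1a in F1 at 17.7 and Il1b in F2 at 3533. In O FIS they were Cxcl2 in F1 at 8105 CPM, Cxcr4 in F1 at 135 and Il1b in M2 at 7268. The last of the 8 was S100a8 in Y VEH F1 at 34335 CPM. It is a gene of the rule, which shapes its level, so its flag is description only.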

How the results depend on the processing

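The depth of these cells limits the comparisons, with 24 to 227 neutrophils a library. Of 452 alternatives over 38 named results, 354 kept direction and call, 96 lost the call and 2 reversed (Pag1 to 0.74 and Ptk2b to 0.26 when neutrophils were set against all other cells). Of the age DARs, Cdk8 and Cmss1 stayed called in 25 of 25, Lars2 in 24, Syne1 in 21 and Cybb in 18. Plac8 stayed called in 16 of 25, Cd177 in 15, Gphn in 14, mt-Nd6 in 10 and Camk1d in 7. Ngp kept its call in 22 of 24. Ly6a2 kept its call in 18 of 24, but it passed the filter on low counts only through the old libraries, so its count carries no weight. The cause of the changes below was not tested. For the log2 share, O FIS against O VEH became 0.017 among Ptprc cells and ranged from -0.52 to 0.27 with 1 library left out, and Y FIS against Y VEH became 0.13 without the male Y FIS libraries.

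The 12 age DARs became 74 with no gene filter, 3 without cells of high UMI count, 5 without cells holding Ltf, Camp or Ngp, 20 with DESeq2 and 4 to 14 with 1 library left out. With no gene filter there were 15 DARs for fisetin in old mice, 15 in young mice, 47 for O FIS against Y VEH, 14 for fisetin by age, 29 for sex, and 82, 11 and 8 for the difference from monocytes with age, old fisetin and young fisetin. Against all other cells those 3 were 36, 8 and 4, with 7 of the 22 age genes kept. The 0 DARs of O FIS against Y VEH became 1 without the sex term, 6 with only those groups, 2 with a gate of 20 UMIs, 1 without haemoglobin cells, 14 with DESeq2 and 0 to 8 with 1 library left out (8 without O VEH F1).

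The replicate numbers were not taken to pair libraries. Over 16 pairs with 1 label the correlation of deviations ran from -0.40 to 0.14, and over 46 pairs with other labels from -0.43 to 0.35. The deviations were taken from fitted group and sex means of few libraries, which ties them to each other. They cannot decide whether the numbers pair libraries. With the replicate block the age DARs were 12, of which 10 were shared (Camk1d and mt-Nd6 were lost), those of O FIS against Y VEH 3, and fisetin in old mice 0.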

Other observations

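Some transcripts varied widely among the neutrophils of a library, the granule cells included. After thinning to 1000 UMIs in 1279 cells, the variance-to-mean ratio (Fano factor) over 1529 genes had a median of 1.14. The variance was taken within each library and averaged over libraries by cell number. Differences between library means therefore do not enter it. It was highest for Hbb-bs, a haemoglobin chain, at 276, and Igkc, the immunoglobulin light chain constant region, at 223, which other cell types make. Of the neutrophils' own transcripts, the granule genes Camp, Ngp, Ltf and Lcn2 were at 34.9, 29.4, 11.5 and 5.76, the rule's genes S100a9, S100a8 and Retnlg at 24.9, 23.5 and 13.9, and Cxcl2 at 4.69. Igkc was concentrated in 1 library, O FIS F1, where B-cell markers summed to 10581 CPM.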
